A study of Mus musculus with 4 samples.

Results

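The genes described here encode the proteins that neutrophils carry in their granules and, for one pair, in their cytosol. They were taken by symbol: Mpo, Elane, Prtn3 and Ctsg as primary granule genes, and Ltf, Camp, Ngp, Mmp9, S100a8 and S100a9 as late genes. All 10 were found among the 19938 genes measured, each through 1 probe set with a single gene symbol.

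Neutrophils fill their granules in a fixed order as they mature in the bone marrow. Primary (azurophil) granules form first, at the promyelocyte stage, and hold myeloperoxidase and the serine proteases. Specific granules, with lactoferrin and cathelicidin, and gelatinase granules, with the metalloproteinase MMP9, form later. Multipotent progenitors that lean towards the myeloid fate already transcribe primary granule genes, whereas late granule genes are known from maturing neutrophils.

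RNA came from bone marrow cells of C57BL/6 mice aged 8 weeks, sorted by FACS for c-Kit and Sca-1 among cells without lineage markers and called haematopoietic stem cells (HSCs) by the labels. The gate also takes in multipotent progenitors. Wild-type (WT) mice were compared with mice labelled Hif1a-/-, a deletion of the gene for the oxygen-regulated subunit of HIF-1, with 2 arrays for each, which the labels call biological replicates 1 and 2. How the allele was deleted, in which cells, and whether marrow was pooled are not given in the sources used here. Hif1a itself gave log2 signals of 10.37 (array 1) and 10.99 (array 2) in WT, beside 10.58 and 10.64 in Hif1a-/-. Which part of the gene was removed is not stated, so this signal does not check the genotype. Nothing in the labels says what the replicate number stands for beyond a biological replicate, and p-values measure the spread between these 4 arrays. The stem cell receptor gene Kit read 12.57 and 12.37 on the arrays numbered 1 (WT, Hif1a-/-) and 11.51 and 11.32 on those numbered 2, and Ly6a, which encodes Sca-1, was not analysed here.

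Several of the 10 genes lie side by side in the mouse genome (GRCm38.p6). Prtn3 and Elane are neighbours on chromosome 10 with 0 coding genes between them, as are S100a8 and S100a9 on chromosome 3. Camp, Ngp and Ltf share chromosome 9, with 8 coding genes between Camp and Ngp and 20 between Ngp and Ltf.

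The 250 bases upstream of the annotated start site are shown for both neighbour pairs and for Ltf and Ngp. The members within each class had the same array at the top, though the size of their differences varied. The windows are RefSeq sequence of build GRCm38.p6, which held 9 of the 10 genes and 32851 promoters in all. They are Elane (chr10:79886062-79886311, plus strand), Prtn3 (chr10:79879417-79879666, plus strand), Ltf (chr9:111019042-111019291, plus strand), Ngp (chr9:110419558-110419807, plus strand), S100a8 (chr3:90668821-90669070, plus strand) and S100a9 (chr3:90695722-90695971, minus strand). Capitals mark the core letters of PU.1 sites (AGGAAG, or CTTCCT on the other strand) and of C/EBP sites (TTGCNNAA, or TTNNGCAA on the other strand).
Elane: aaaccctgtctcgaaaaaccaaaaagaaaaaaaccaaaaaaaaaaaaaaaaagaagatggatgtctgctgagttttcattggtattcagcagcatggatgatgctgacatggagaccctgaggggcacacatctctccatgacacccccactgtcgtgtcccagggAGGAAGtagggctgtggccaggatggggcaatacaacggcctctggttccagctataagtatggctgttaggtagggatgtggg
Prtn3: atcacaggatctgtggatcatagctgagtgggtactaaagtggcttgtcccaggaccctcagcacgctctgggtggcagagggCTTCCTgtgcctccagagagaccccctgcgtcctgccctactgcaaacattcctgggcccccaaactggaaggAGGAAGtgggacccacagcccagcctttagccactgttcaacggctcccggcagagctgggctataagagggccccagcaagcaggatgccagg
Ltf: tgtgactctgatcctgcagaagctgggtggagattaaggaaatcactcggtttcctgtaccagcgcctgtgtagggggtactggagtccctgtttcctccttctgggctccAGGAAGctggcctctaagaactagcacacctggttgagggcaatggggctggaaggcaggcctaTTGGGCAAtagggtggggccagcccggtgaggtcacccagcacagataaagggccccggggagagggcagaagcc
Ngp: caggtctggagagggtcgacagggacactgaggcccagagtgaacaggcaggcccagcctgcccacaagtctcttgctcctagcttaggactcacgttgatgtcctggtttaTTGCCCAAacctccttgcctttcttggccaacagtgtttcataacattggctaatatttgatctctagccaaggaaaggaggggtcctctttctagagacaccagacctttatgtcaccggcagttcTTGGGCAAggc
S100a8: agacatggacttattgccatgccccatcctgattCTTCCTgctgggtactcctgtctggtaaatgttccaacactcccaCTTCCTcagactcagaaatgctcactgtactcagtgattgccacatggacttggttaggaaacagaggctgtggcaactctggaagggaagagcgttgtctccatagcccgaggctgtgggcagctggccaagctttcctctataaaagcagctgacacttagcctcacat
S100a9: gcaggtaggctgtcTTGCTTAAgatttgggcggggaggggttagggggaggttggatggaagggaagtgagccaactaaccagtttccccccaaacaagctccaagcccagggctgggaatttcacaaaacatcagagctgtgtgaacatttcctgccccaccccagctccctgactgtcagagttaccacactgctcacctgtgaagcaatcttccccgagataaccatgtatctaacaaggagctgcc

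PU.1 and C/EBP factors are the main transcription factors of granulocyte development. The PU.1 letters were present in the windows of 7 of the 9 members, against 29.5% of all promoters, and in all 4 primary granule genes. The Elane match lay 84 bases upstream of the start site, and the Prtn3 matches lay 94 and 167 bases upstream. The C/EBP letters were found in 3 of 9 windows, those of Ltf, Ngp and S100a9, against 9.56% of all promoters. RUNX letters (TGTGGT or ACCACA) occurred in 2 windows (14.0% of all promoters) and TATA letters (TATAAA or TTTATA) in 2 (12.4%). The hypoxia response core (ACGTG or CACGT) occurred in 1, that of Ngp, against 16.6% of all promoters. Both strands were searched, and no match overlapped another within these 9 windows. These are letter matches only, and no binding was measured.

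Primary granule genes gave strong signal on every array and were somewhat higher on the arrays numbered 2. Mpo, which encodes the peroxidase that makes hypochlorous acid, had log2 signals of 13.54 (array 1) and 13.81 (array 2) in WT, beside 13.37 and 13.56 in Hif1a-/-. Its 4 values lay within a narrow band near the top of the scale, since the largest signal on any array was 14.88. Elane, the gene of neutrophil elastase, read 13.14 and 13.70 in WT and 12.61 and 13.42 in Hif1a-/-. Prtn3, which encodes proteinase 3, read 11.70 and 12.91 in WT and 11.30 and 12.44 in Hif1a-/-. Ctsg, which encodes the chymotrypsin-like protease cathepsin G, read 12.45 and 13.49 in WT and 12.26 and 12.97 in Hif1a-/-. For all 4 genes, WT array 2 was the highest and Hif1a-/- array 1 the lowest.

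Late genes had a different order of arrays, with Hif1a-/- array 2 at the top. Ltf, the gene of the iron-binding protein lactoferrin, read 9.36 (array 1) and 11.07 (array 2) in WT, beside 9.14 and 12.75 in Hif1a-/-. Camp, which encodes the cathelicidin precursor of an antimicrobial peptide, read 9.56 and 11.07 in WT and 9.62 and 12.52 in Hif1a-/-. Ngp, the gene of a granule protein related to the cathelicidins, read 11.52 and 12.80 in WT and 11.40 and 13.77 in Hif1a-/-. In all these cases the arrays numbered 1 lay close together and the arrays numbered 2 lay apart from them and from each other.

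The gelatinase and calprotectin genes had the same order. Mmp9, which encodes gelatinase B, read 8.64 and 9.48 in WT and 8.59 and 11.33 in Hif1a-/-. Its signals on the arrays numbered 1 sat at the level of the median gene of those arrays (8.56 in each), and the table holds no detection call. S100a8 and S100a9 encode the subunits of calprotectin, a metal-binding complex held mainly in the cytosol. S100a8 read 10.14 and 11.93 in WT and 9.92 and 12.84 in Hif1a-/-. S100a9 read 9.94 and 11.34 in WT and 9.58 and 12.80 in Hif1a-/-. In each of the 6 late genes, Hif1a-/- array 2 exceeded WT array 2, which in turn exceeded both arrays numbered 1.

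**Figure D1:**
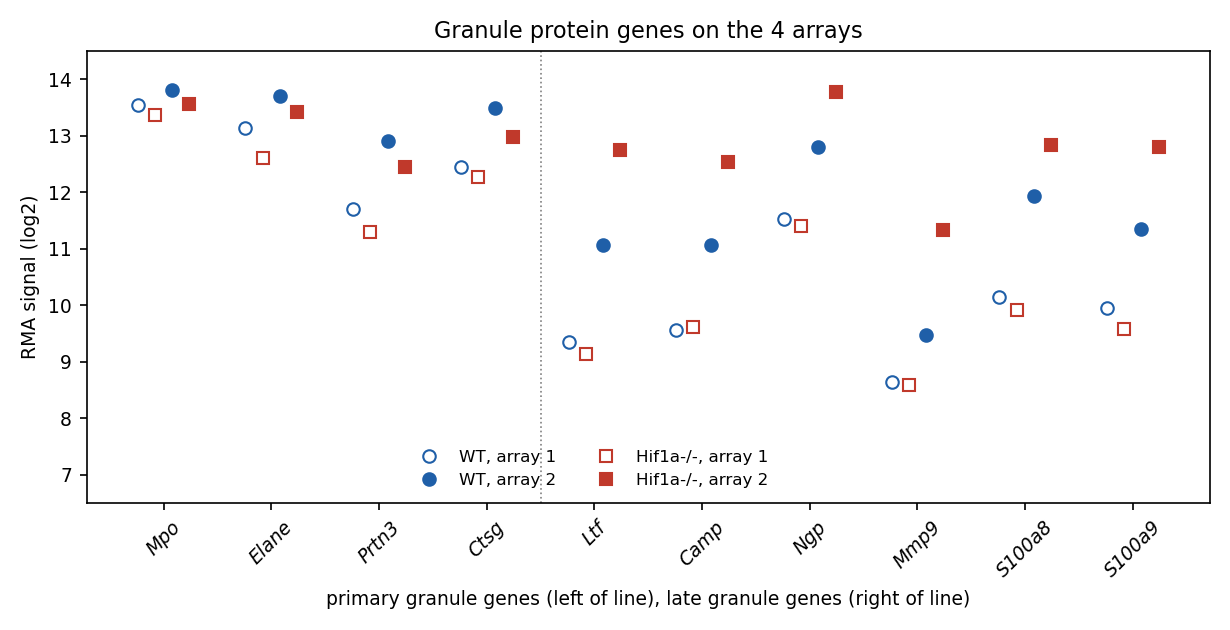
RMA signal (log2) of each granule protein gene, 1 point per array. Open symbols are arrays numbered 1, filled symbols arrays numbered 2, circles WT and squares Hif1a-/-. Filled squares are highest for all 6 late genes (11.33 to 13.77), and filled circles are highest for all 4 primary genes (12.91 to 13.81).

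The comparison of array numbers sets the arrays numbered 2 against those numbered 1, with 1 WT and 1 Hif1a-/- array in each number. The SD and SE given here therefore include the difference between the genotypes within a number. All 10 genes were higher on both arrays numbered 2 than on both arrays numbered 1, a separation in that direction seen in 20.4% of all genes. In a limma fit across 19938 genes, 6 of the 10 were higher in number 2 after Benjamini-Hochberg adjustment, against 3.81% of all genes. These were S100a8, Ngp, Prtn3, Ltf, S100a9 and Camp. S100a8 rose from a mean of 10.03 ± 0.15 (SD, n = 2) on the arrays numbered 1 to 12.39 ± 0.64 on those numbered 2, a log2 difference of 2.36 (SE 0.30, 5.13-fold, adjusted p = 0.0117 in limma). Ltf rose by 2.66 (SE 0.51, 6.33-fold, adjusted p = 0.0394), from 9.25 ± 0.15 to 11.91 ± 1.19 (SD, n = 2; limma). Prtn3 rose by 1.17 (SE 0.21, 2.26-fold, adjusted p = 0.0324) and was the sole primary granule gene to pass.

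The other calls were of like size or smaller. Ngp, Camp and S100a9 rose by 1.82, 2.21 and 2.31 log2 units, with adjusted p of 0.0266, 0.0449 and 0.0426 in limma. Mmp9 differed by 1.79 (SE 0.56, adjusted p = 0.143), Ctsg by 0.87 (SE 0.19, adjusted p = 0.0603) and Elane by 0.69 (SE 0.21, adjusted p = 0.134). Mpo differed by 0.23 (SE 0.14, 95% interval −0.12 to 0.57, adjusted p = 0.488), the smallest difference of the 10. The median difference was 0.78 over the primary and 2.26 over the late genes, beside −0.02 over all genes. Mpo, Elane and Ctsg are among the brightest genes, and whether their differences were compressed near the top of the scale was not tested. Under quantile normalization 3 members passed (Prtn3, Ngp and S100a8), and under cyclic loess 3 (Prtn3, Ctsg and S100a8). Only S100a8 passed without WT array 1 or without Hif1a-/- array 1, and all but Mpo passed without WT array 2 or without Hif1a-/- array 2.

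The number difference had a like median in both genotypes for primary genes and was larger in Hif1a-/- for each late gene. Among primary genes, Prtn3 differed between the numbers by 1.21 log2 units in WT and 1.14 in Hif1a-/-, and Ctsg by 1.04 and 0.71. Elane differed by 0.56 and 0.82, and Mpo by 0.26 and 0.19. The medians over the 4 genes were 0.80 in WT and 0.76 in Hif1a-/-. Among late genes, Ltf differed by 1.71 in WT and 3.61 in Hif1a-/-, which is 3.28-fold and 12.2-fold. Camp differed by 1.51 and 2.90, Ngp by 1.28 and 2.37, and Mmp9 by 0.84 and 2.74. S100a8 differed by 1.80 and 2.92, and S100a9 by 1.40 and 3.22. The late medians were 1.45 in WT and 2.91 in Hif1a-/-, and the difference was larger in Hif1a-/- for 6 of 6 late genes and 1 of 4 primary genes, against 47.6% of all genes. With 1 array per genotype and number, this contrast has no replicate and was not tested. The late genes kept this order under quantile normalization, median centring and cyclic loess. Under cyclic loess Mpo (0.06 in WT, 0.25 in Hif1a-/-) and Prtn3 (1.03 and 1.26) joined Elane in having the larger difference in Hif1a-/-, and Prtn3 did so under quantile normalization too (1.03 and 1.13).

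**Figure D2:**
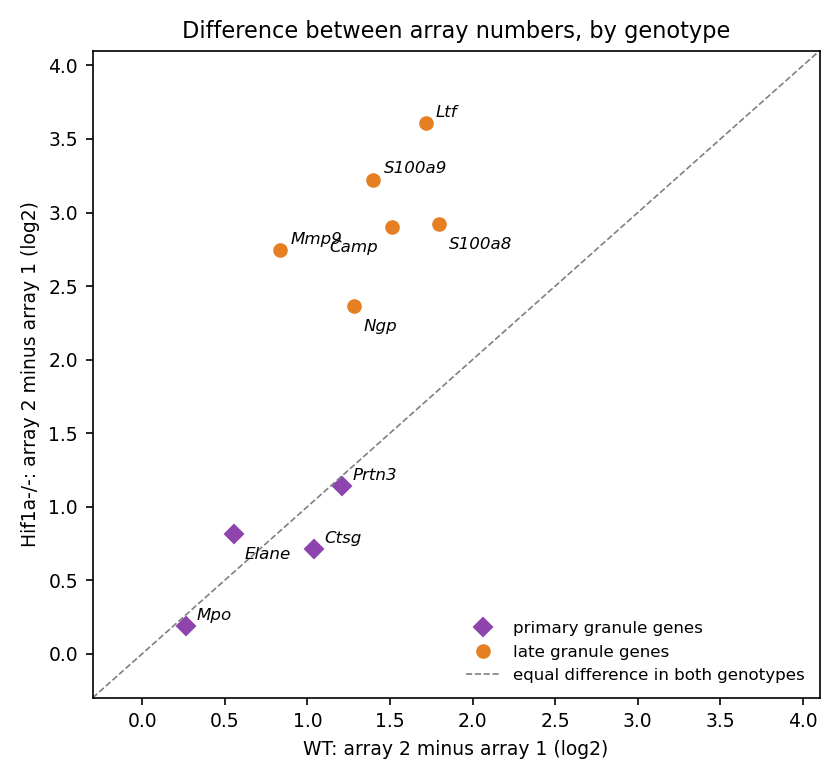
Difference between array 2 and array 1 (log2) in WT (x axis) against the same difference in Hif1a-/- (y axis), 1 point per gene. Primary granule genes lie near the dashed line of equal differences, and the 6 late genes lie above it, from 2.37 (Ngp) to 3.61 (Ltf) on the y axis.

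Between the genotypes, no granule protein gene passed the test. In the limma fit of all 4 arrays, 0 of the 10 members and 0 of all genes (0%) had an adjusted p under 0.05. At an unadjusted p under 0.05 there were again 0 members, against 0.727% of all genes. With the replicate number as a block, 0 members and 0 genes passed after adjustment, and 2 of 10 members, Prtn3 and Elane, had an unadjusted p under 0.05 in limma, against 2.40% of all genes. The arrays of the genotypes overlapped for every member, whereas 24.5% of all genes did not overlap. Ltf averaged 10.21 ± 1.21 (SD, n = 2) in WT and 10.94 ± 2.55 in Hif1a-/-, a log2 difference of 0.73 (95% interval −3.21 to 4.67). Mmp9 differed by 0.90 (SE 1.02), Camp by 0.76 (SE 1.16), S100a9 by 0.55 (SE 1.25), Ngp by 0.42 (SE 0.96) and S100a8 by 0.34 (SE 1.22). For the late genes the standard error exceeded the difference in every case, since the spread between the replicates of a genotype was wide. The primary genes had negative differences, with Prtn3 at −0.44 (SE 0.60), Elane at −0.41 (SE 0.37), Ctsg at −0.35 (SE 0.46) and Mpo at −0.21 (SE 0.16, 95% interval −0.64 to 0.22). With an array left out, genotype and array number are no longer balanced. The median over the late genes was 0.64 with all arrays, −0.14 without WT array 1 and −0.91 without Hif1a-/- array 2, and that over the primary genes was −0.38 with all arrays, 0.0019 without Hif1a-/- array 1 and 0.045 without WT array 2. The sign of Mpo did not turn without any of the 4 arrays (−0.34 to −0.078).

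Set within each array number, the primary and late genes parted. All 4 primary genes had lower values in Hif1a-/- than in WT within both numbers, as did 21.0% of all genes. Prtn3 differed by −0.40 in number 1 and −0.47 in number 2, Ctsg by −0.19 and −0.51, Elane by −0.54 and −0.28, and Mpo by −0.17 and −0.25. These signs were the same under quantile normalization, median centring and cyclic loess, where the smallest was −0.06 for Mpo in number 2. Among the 404 genes with a mean signal over 12, which include all 4 primary genes, the median was 0.04 in number 1 and −0.16 in number 2, and 20.0% were lower in both. Late genes in number 1 differed by little, from −0.37 (S100a9) to 0.06 (Camp), with 5 of 6 below 0, against 44.7% of all genes. In number 2 all 6 were higher in Hif1a-/-, against 51.0% of all genes, by 1.85 for Mmp9, 1.68 for Ltf and 1.46 for both Camp and S100a9. Ngp and S100a8 were 0.96 and 0.91 higher there. A difference over 1 log2 unit in number 2, a level set after the values were seen, occurred in 4 of the 6 late genes and in 0.331% of all genes. The sign differed between the numbers for 5 of the 6 late genes, and for 51.6% of all genes. Each of these differences rests on a single pair of arrays.

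**Figure D3:**
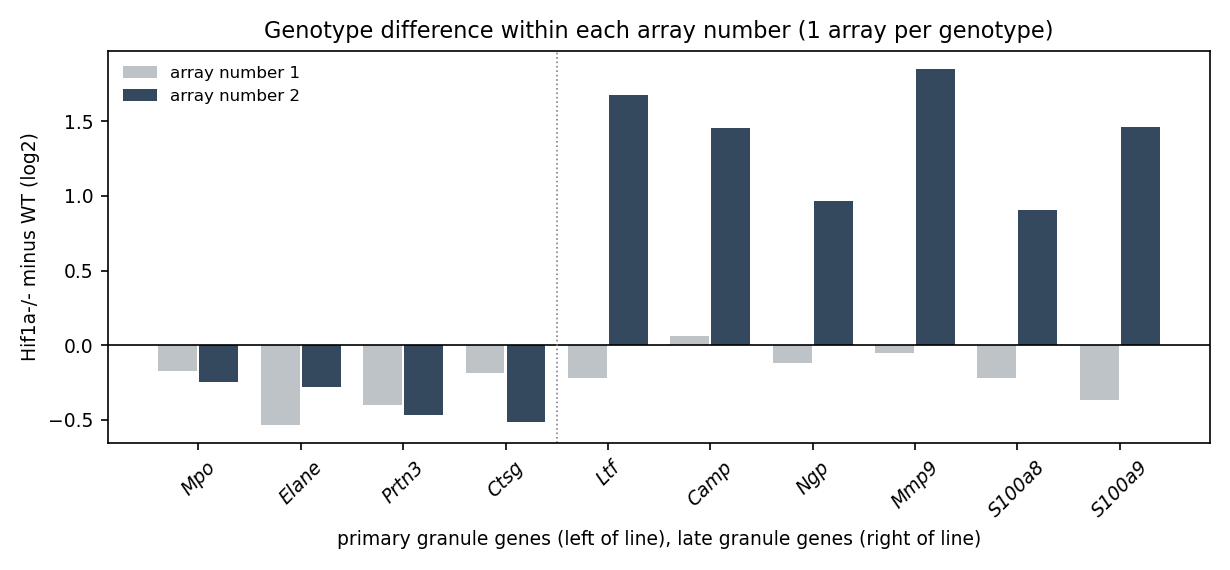
Difference between Hif1a-/- and WT (log2) for each gene within array number 1 (light bars) and number 2 (dark bars), each from 1 array per genotype. Primary genes are below 0 in both numbers, and late genes reach 0.91 to 1.85 in number 2 while staying between −0.37 and 0.06 in number 1.

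Further granule genes outside the 10 were called in 1 direction, higher in number 2. Of 16 other genes listed as late granule genes, 9 were higher and 0 lower in number 2 after adjustment in limma. That list also holds Ly6g, a surface marker of neutrophils. Of all 19938 genes, 759 (3.81%) were higher and 585 lower. The 16 listed genes had a median difference between numbers of 1.29 in WT and 2.25 in Hif1a-/-. The larger difference was in Hif1a-/- for 16 of 16, against 47.6% of all genes. The chitinase-like gene Chil3 was 3.66 higher in number 2 (SE 0.27, 3.12 in WT and 4.21 in Hif1a-/-) and the metalloproteinase gene Adam8 2.51 higher (2.23 and 2.78). In number 2, 16 of 16 were higher in Hif1a-/- than in WT, against 51.0% of all genes, with a median of 0.77. Of 13 other primary granule and promyelocyte genes, 7 were higher and 0 lower in number 2, with medians of 0.91 in WT and 0.92 in Hif1a-/-. Haptoglobin (Hp) was 2.56 higher (2.44 and 2.67) and the myeloid receptor gene Trem3 2.27 higher (2.36 and 2.17). Between the genotypes in number 2, the median of these 13 genes was −0.08, and 3 of 13 were higher in Hif1a-/-, again beside 51.0% of all genes.

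Protease inhibitor genes, and other S100 and calprotectin receptor genes, were called in part, beside 1344 of all 19938 genes called in either direction. Of 8 measured protease inhibitors, the stefin gene Stfa2 was 1.27 higher in number 2 and the metalloproteinase inhibitor gene Timp2 differed by −0.91, both past adjustment. Slpi, which encodes an inhibitor of elastase and cathepsin G, differed by 1.25 (adjusted p = 0.0797 in limma). Among 11 other S100 and calprotectin receptor genes, S100a6 and S100a4 rose in number 2 by 1.59 and 0.76, both past adjustment. The receptor gene Ager differed by −0.23 without passing. The median over that list was 0.16, beside −0.02 over all genes.

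Regulators and surface genes of the neutrophil lineage rose in part, beside 3.81% of all genes called higher in number 2. Of 15 granulocyte regulators, 4 were higher in number 2, among them Cebpe, the factor of specific granule formation, by 1.30 (1.05 in WT, 1.56 in Hif1a-/-) and Irf8, a monocyte and dendritic cell regulator, by 1.66. Myb and Runx1 differed by −0.52 and −0.46 without passing. Of 5 measured NADPH oxidase genes 3 were higher, including Cybb by 2.38 and Cyba by 1.17, which together encode the membrane part of the oxidase, and Rac2 was at −0.08. Among 15 neutrophil surface genes 7 were higher and 0 lower. The chemokine receptor gene Ccr1 and the Fc receptor gene Fcgr3 were 2.01 and 2.04 higher, whereas Cxcr4 and Csf3r, the receptor gene for G-CSF, differed by −0.50 and −0.73 without passing. Between the genotypes, 0 genes of these lists of granule, inhibitor, S100, regulator, oxidase and surface genes passed the limma test, and 0 had an unadjusted p under 0.05.

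Ly6g, a surface marker of neutrophils chosen after its values were seen, belongs to the list of other late granule genes already counted above. It read 8.04 (array 1) and 9.81 (array 2) in WT, beside 7.80 and 11.21 in Hif1a-/-, an order like that of the late granule genes. Markers of several other cell types moved with the array number too. Mast cell and basophil markers were higher in number 2 for 6 of 9, with a median of 1.81 in WT and 1.72 in Hif1a-/-. The larger difference was in Hif1a-/- for 0 of 9, against 47.6% of all genes. Fcer1a, a chain of the IgE receptor, was higher by 3.05 in WT and 2.96 in Hif1a-/-, and the histamine enzyme gene Hdc by 1.81 and 1.74. Monocyte and macrophage markers were higher for 7 of 12 (medians 1.34 and 1.14), with Ccr2 at 2.55 and Fn1 at 1.59. Eosinophil markers were higher for 4 of 6 (1.35 and 1.21), with Epx and Ear6 at 2.25 each. Siglecf was at −0.03 without passing. Of 12 stem cell markers, 6 were lower and 0 higher (medians −0.98 and −0.94), with Hlf at −2.95 and Robo4 at −1.31. Slamf1 differed by 0.15 without passing (0.45 in WT, −0.15 in Hif1a-/-). Of all 19938 genes, 585 were called lower and 759 (3.81%) higher in number 2. Erythroid markers were called for 1 of 5 (Epor, 0.55), B cell markers for 0 of 8 in limma (1 at an unadjusted p under 0.05) and T and NK cell markers for 2 of 8. Between the genotypes, B cell markers had a median of 0.96 (1.13 in number 1, 0.83 in number 2), with 0 of 8 past adjustment in limma. At an unadjusted p under 0.05 in limma there were 5 of 8, against 0.727% of all genes. The other marker lists had 0 genes at that level.

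The summed signal of several of these lists, on the log2 scale, showed the same split, but not that of B cell markers or protease inhibitors. B cell markers summed to 13.17 and 14.45 on the arrays numbered 1 and to 13.15 and 13.73 on those numbered 2 (WT first). Protease inhibitors summed to 12.36 and 12.23 against 12.74 and 12.33. Mast cell and basophil markers summed to 12.36 and 12.77 on the arrays numbered 1 and to 14.19 and 14.29 on those numbered 2 (WT first). Monocyte and macrophage markers summed to 13.23 and 13.31 against 14.76 and 14.70, and eosinophil markers to 11.31 and 11.40 against 12.98 and 12.64. Stem cell markers summed to 15.07 and 14.93 against 13.95 and 13.46. The 6 late granule genes summed to 12.74 and 12.59 against 14.19 and 15.42, and the 4 primary genes to 14.87 and 14.57 against 15.51 and 15.16. RMA signals have no zero, so a marker cannot be called absent. In sorted bulk RNA, more cells of a type and more RNA per cell cannot be told apart. The part of these cells in the granule gene differences was not tested.

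**Figure D4:**
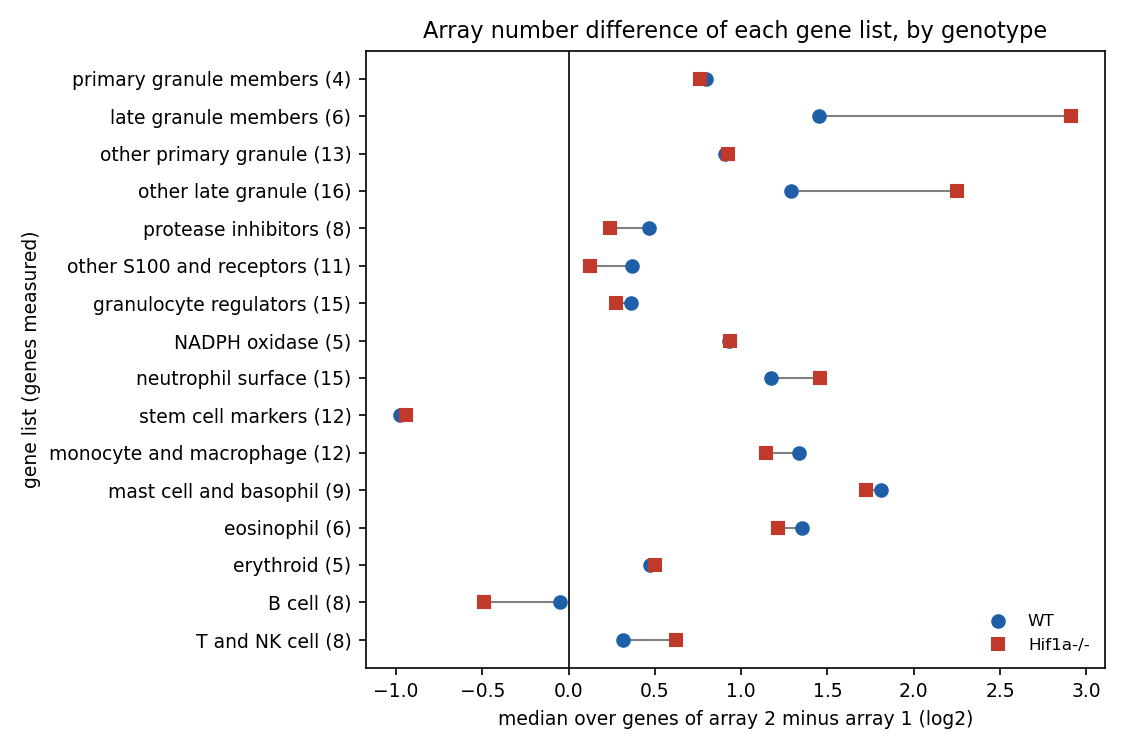
Median over the genes of each list of the difference between array 2 and array 1 (log2), with WT as circles and Hif1a-/- as squares, and the number of genes measured in brackets. The late granule members (1.45 and 2.91) and the list of other late granule genes, which includes Ly6g (1.29 and 2.25), have the widest gaps between genotypes.

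With 4 arrays as a basis, the patterns most like those of the granule genes were sought among genes outside all lists, by the Euclidean distance between mean-centred log2 signals. This is a description only. Closest to the mean of the primary genes were Phlda1 (distance 0.08), Prss16 (0.10), Churc1 (0.12), Hvcn1 (0.13) and Napsa (0.16). The primary genes themselves lay 0.17 (Elane) to 0.53 (Mpo) from that mean. Closest to the mean of the late genes were Il2rb (0.12), which encodes a chain of the IL-2 and IL-15 receptors, Nlrp1c-ps (0.24), Gzma (0.28), which encodes the lymphocyte protease granzyme A, Cdk14 (0.35) and Slfn4 (0.44). Il2rb read 7.41 (array 1) and 8.85 (array 2) in WT, beside 7.40 and 10.25 in Hif1a-/-. The late genes lay 0.16 (Camp) to 0.53 (Mmp9) from their own mean.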

How the data were processed

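The values are log2 signals of Affymetrix whole-transcript arrays, which the authors deposited. The submitters' processing notes name RMA and Affymetrix Expression Console, version 1.1. The log base is read from the values, which lie between 3.08 and 14.88. RMA fits the arrays to a common distribution, so a change shared by all genes would be removed. There were 0 columns of other samples.

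The platform annotation gave 1 symbol to 21789 of 35556 probe sets and several to 1621, and did not list 12146. Each gene was read from its brightest probe set by mean signal (999 genes had several), leaving 19938 genes with no filter on dim signal. Precision is limited by 2 arrays per genotype.

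Genotype and array number were each fitted across all genes by lmFit and eBayes of limma 3.58.1 (R 4.3.3, two-sided tests without covariates), with Benjamini-Hochberg adjustment and a threshold of 0.05. The fits were tested on simulated data. For the genotype fit these held no array number difference, so that test does not cover the split seen here. All 10 members are named. Genes named from each other list were drawn from the up to 2 per direction with the smallest p for array number, and not all of these are printed. The 5 genes nearest each class in pattern are named too. Hif1a is given as the targeted gene, and Ly6g and Kit are given as checks chosen after their values were seen. Members, lists and tests were chosen with earlier results of these data known, including the split by array number. Alternatives were quantile normalization, cyclic loess, median centring, a filter against the dimmest 40% of genes, averaged probe sets, eBayes with trend and robust, the replicate number as a block, and each array left out.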

Additional observations from a re-analysis of the deposited data

Results flagged for a closer look

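For 5 late genes, the difference between Hif1a-/- and WT had opposite signs in the 2 array numbers. So did 51.6% of all genes, and 0 of the 4 primary genes. In number 2 it was 1.68 log2 units for Ltf, 0.96 for Ngp, 1.85 for Mmp9, 0.91 for S100a8 and 1.46 for S100a9. Within number 1 it was −0.22, −0.12, −0.05, −0.22 and −0.37 in the same order. Each value comes from 1 array per genotype, and the change of sign was not tested.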

How the results depend on the processing

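The replicate numbers are shared by the genotypes, but the labels do not say that they mark a common batch or litter. With 2 pairs this cannot be settled from the data, where same-numbered arrays deviated together from their genotype means (r = 0.67 across genes). With the replicate number as a block, 0 members and 0 genes passed for genotype, and 7 members passed for array number (Ctsg added). For array number, the 6 members called became 3 under quantile normalization, 3 under cyclic loess and 1 to 9 with an array left out. The 1344 genes called of all became 319 to 4661 with an array left out: 319 without WT array 1, 458 without Hif1a-/- array 1, 4661 without WT array 2 and 4602 without Hif1a-/- array 2. The late genes' median for array number ranged from 1.53 (without Hif1a-/- array 2) to 2.87 (without WT array 2), beside 2.26 with all arrays. With an array left out, the genotype median of the primary genes ranged from −0.78 to 0.045 and that of the late genes from −0.91 to 2.18. The genotype difference then ranged from −0.34 to −0.078 for Mpo, −0.82 to 0 for Elane, −1.04 to 0.17 for Prtn3, −0.87 to 0.17 for Ctsg, −1.08 to 2.53 for Ltf, −0.69 to 2.21 for Camp, −0.76 to 1.60 for Ngp, −0.47 to 2.27 for Mmp9, −1.12 to 1.80 for S100a8 and −1.07 to 2.16 for S100a9. The sign turned without WT array 1 for Ltf, Ngp, S100a8 and S100a9, without Hif1a-/- array 2 for all 6 late genes, and without Hif1a-/- array 1 or WT array 2 for Prtn3 and Ctsg. In these fits the lone array of its group is taken to vary like the others, and the cause of these changes was not tested. Median centring, a filter against the dimmest 40% of genes, averaged probe sets and eBayes with trend and robust changed no call of a member in either comparison.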

Other observations

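Markers of T and NK cells had a median number difference of 0.31 log2 units in WT and 0.62 in Hif1a-/-. Of 8 measured markers, 2 were higher in number 2 after adjustment in limma, against 3.81% of all genes. These were the NK cell receptor gene Ncr1, by 1.90 (SE 0.39, adjusted p = 0.0480 in limma), and Cd8a, by 0.90 (SE 0.13, adjusted p = 0.0178 in limma). Ncr1 read 6.69 (array 1) and 7.99 (array 2) in WT, beside 6.75 and 9.26 in Hif1a-/-. In number 2, 8 of 8 were higher in Hif1a-/- than in WT, against 51.0% of all genes, with a median of 0.34. The larger number difference was in Hif1a-/- for 7 of 8, against 47.6% of all genes. Cd4 differed between the numbers by −0.30 without passing.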
